A study of Mus musculus with 8 samples.

Results

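The genes described here are *Tpbpa*, *Tpbpb*, *Pappa2*, *Pcdh12*, *Plac1*, *Syna*, *Synb* and *Rhox9*, 8 of the 26263 genes counted in polyA RNA-seq libraries of mouse embryonic stem cells (ESCs) and of neural precursor cells (NPCs) derived from them. They were taken by symbol, and the symbols were chosen from the difference in counts between NPCs and ESCs in these same libraries, so that difference is given below as a description and without a test. All 8 symbols were found, and 7 of the 8 genes passed the filter on low counts, the exception being *Synb*. The cells were male hybrid ESC lines of reciprocal crosses, either B/J cells (line BJE2, genotype C57BL/6 x JF1, from a C57BL/6 mother) or J/B cells (JBE6, genotype JF1 x C57BL/6, from a JF1 mother), and each cross is represented by 1 line only, so that line and cross cannot be told apart. ESCs were kept on gelatin in ESGRO complete plus medium with LIF, BMP4 and a GSK3-β inhibitor, and NPCs were the cells at day 12 of *in vitro* corticogenesis, grown on Matrigel in a defined medium that held B27 without vitamin A and dorsomorphin homolog 1. Each of the 4 groups (ESC B/J, ESC J/B, NPC B/J and NPC J/B) had 2 libraries. Nothing states that the replicates were separate cultures, and the p-values below measure only the spread between these libraries.

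The mouse placenta is built by trophoblast cells, which arise from the outer layer of the blastocyst and not from the inner cell mass that gives rise to ESCs. Its junctional zone holds spongiotrophoblast cells and glycogen trophoblast cells, for which *Tpbpa* is the classical marker, while in the labyrinth zone 2 layers of fused cells, the syncytiotrophoblast, separate the maternal from the fetal blood. The 8 genes stand for these compartments: *Tpbpa*, *Tpbpb*, *Pappa2* and *Pcdh12* for the junctional zone, *Syna* and *Synb* for the syncytiotrophoblast, and the X-linked genes *Plac1* and *Rhox9* for trophoblast more widely.

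*Tpbpa* and *Tpbpb* are neighbouring paralogues on chromosome 13, and the sequences upstream of their starts are shown because the genes are read together below and these stretches are nearly the same. Both lie on the minus strand of GRCm39, *Tpbpa* with 4 exon blocks at chr13:61086306-61089798 and *Tpbpb* with 5 at chr13:61049002-61052694. The first 200 bases of each promoter in the RefSeq promoter table (built on GRCm38 and placed on GRCm39 by an exact match) are given from 5′ to 3′, with capitals for bases that differ from the aligned base of the other gene or have none in its printed stretch. The first 2 capitals of *Tpbpa* lie before the start of the *Tpbpb* stretch and mark no difference. They lie at chr13:61089801-61090000 for *Tpbpa* and at chr13:61052712-61052911 for *Tpbpb*.
Tpbpa: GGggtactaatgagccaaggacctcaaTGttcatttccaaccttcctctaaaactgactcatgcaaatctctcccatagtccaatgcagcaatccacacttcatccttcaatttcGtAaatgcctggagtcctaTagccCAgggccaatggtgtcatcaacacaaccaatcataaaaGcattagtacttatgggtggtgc
Tpbpb: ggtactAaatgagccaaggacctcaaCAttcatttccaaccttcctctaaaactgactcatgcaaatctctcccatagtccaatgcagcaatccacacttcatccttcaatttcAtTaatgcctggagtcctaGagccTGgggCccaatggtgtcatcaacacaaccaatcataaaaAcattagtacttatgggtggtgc
Over 250 aligned positions of the full promoters, of which the first 200 bases are printed, 240 were identical, 8 were mismatched and 2 were in gaps, an identity of 96.0%. The full promoters run on to chr13:61089751 and chr13:61052662, so their last bases lie past the annotated starts and inside the genes. The coding sequences were 84.3% identical, and 0 of 1522 windows of 100 bases from the *Tpbpa* transcript occurred in *Tpbpb*, so no stretch of that length is shared exactly.

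Short motifs of trophoblast regulators were searched on both strands of the 6 promoters of member genes that the table holds, which are 1 each for *Tpbpa*, *Tpbpb*, *Pappa2* and *Syna* and 2 for *Plac1*. The AP-2 motif GCCNNNGGC occurred in 3 of the 6, those of *Tpbpa*, *Tpbpb* and *Syna*, and in 13.7% of 32851 promoters of the same length. In *Tpbpa* and *Tpbpb* the match lies within the stretch printed above, at the same aligned site. As these promoters are nearly the same and 2 others belong to *Plac1*, the 6 are not independent, and no enrichment is read from the share. The GATA motif AGATAA occurred in 1 of the 6, a *Plac1* promoter, and in 9.99% of all. The TEAD motif CATTCC (12.6% of all) and the GCM motif CCCGCAT (1.19% of all) occurred in 0 of the 6. No motif searched is contained in another, and a match or its lack describes only these windows.

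Reads counted on genes numbered 22537138 to 32706015 a library, so that 1 count was worth 0.0306 to 0.0444 CPM, the count per 1000000 reads on genes. A count of 0 is compatible with up to 3 counts, and intervals given with single libraries are exact Poisson intervals at the 95% level, which cover counting error only. The labels were checked against marker genes: 8 of 8 pluripotency genes were lower in NPCs (*Pou5f1*, log2 fold change -6.26; *Esrrb*, -6.12) and 8 of 10 neural precursor genes were higher (*Fabp7*, 8.52; *Hes5*, 7.15) with 1 lower (*Sox2*, -2.27), all by edgeR's quasi-likelihood test at an adjusted p below 0.05. NPC B/J replicate 1 stood apart, as its summed level of the neural precursor markers (693 CPM) and that of 8 neuron markers (350.5 CPM) lay within the ranges of the ESC libraries (612 to 955 and 281 to 377 CPM), while its pluripotency markers summed to 155.5 CPM against 4500 to 7417 CPM in ESC libraries. The ESC sums were led by *Sox2* (378 to 692 CPM) and *Stmn2* (145 to 232 CPM). Those genes stood at 46.6 and 31.3 CPM in NPC B/J replicate 1. *Pax6* and *Tubb3* lay within their ESC ranges in it, and each other gene of both lists was above its highest ESC level. *Fabp7*, for example, was at 29.05 CPM against at most 0.511 CPM, and *Dcx* at 71.7 CPM against at most 0.415 CPM. Over all 16399 genes tested, 37.5% were called higher and 31.9% lower in NPCs, with a median log2 fold change of 0.17 after TMM scaling and of 0.65 on library totals. A gene with fewer than 10 counts in every ESC library entered the fit only through its NPC counts, which fixed its direction. Among the genes of the lists below this held for *Ctla2a*, *Ctla2b*, *Igf1*, *Pappa*, *Cdh5*, *Emcn*, *Hbb-y*, *Hba-x*, *Pcdh9*, *Pcdh11x*, *Pcdh20*, *Gcm1*, *Pparg*, *Rhox12*, *Elf5*, *Krt7*, *Ttr*, *Dcn*, *Lum* and *Emx2*, whose calls are part of the list counts and are a description. The filter asks for 2 libraries, so a gene that reached its level in at most 1 ESC library also entered through NPCs. Such genes were *Fabp7*, *Hes5*, *Aldh1a3*, *Dlx3*, *Gjb2*, *Dcx*, *Tie1*, *Col1a2*, *Postn* and *Prrx1*. Their results, those of *Fabp7* and *Hes5* in the label check included, are likewise a description.

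*Tpbpa* encodes a small secreted protein that resembles the propeptide of cathepsins. It had 0 counts in each of the 4 ESC libraries. In NPCs it had 13865 counts (450 CPM, 443 to 458) in B/J replicate 1, 4907 counts (185 CPM, 180 to 190) in B/J replicate 2, 9205 counts (281 CPM, 276 to 287) in J/B replicate 1 and 4378 counts (171 CPM, 166 to 176) in J/B replicate 2. All NPC libraries were thus high, B/J replicate 1 most of all, and the crosses overlapped. The NPC mean was 272 ± 129 CPM (SD, n = 4). Taking 3 counts over the 4 ESC libraries as the floor, *Tpbpa* was at least 9745-fold higher by library totals, and by TMM factors at least 7004-fold. With 3 counts in each ESC library as the floor, the bound by library totals was 2436-fold. In bulk RNA, fewer cells of a type and less RNA per cell cannot be told apart, here and in every level below.

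*Tpbpb*, its paralogue with the same cathepsin-propeptide resemblance, also had 0 counts in each ESC library. The NPC libraries gave 1456 counts (47.3 CPM) and 841 counts (31.6 CPM) in B/J and 829 counts (25.4 CPM) and 605 counts (23.6 CPM) in J/B. Its lowest B/J value was above its highest J/B value, unlike that of *Tpbpa*. The mean was 31.97 ± 10.76 CPM (SD, n = 4), at least 1124-fold above ESCs by library totals, and by TMM factors at least 808-fold, or 281-fold by totals with 3 counts in each ESC library. *Ctla2a* and *Ctla2b*, which belong to the same group of cathepsin-propeptide proteins and are counted here as a list of 2, are read by their values alone: *Ctla2a* had 0, 0, 3 and 0 counts in the ESC libraries and 23.8 ± 14.3 CPM (SD, n = 4) in NPCs, and *Ctla2b* had 0, 0, 1 and 0 counts and 4.20 ± 3.54 CPM.

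*Pappa2* encodes pappalysin-2, a secreted metalloprotease that cleaves insulin-like growth factor binding proteins. It lies on chromosome 1 (GRCm39, chr1:158539297-158808060, minus strand) and had 0 counts in each ESC library. In NPCs it had 9668 counts (314 CPM, 308 to 320) and 7188 counts (270 CPM, 264 to 277) in B/J and 6507 counts (199 CPM, 194 to 204) and 4404 counts (172 CPM, 167 to 177) in J/B. These values were the least spread of the 8 genes, with a coefficient of variation of 27.2% over the 4 NPC libraries, and those of the crosses did not overlap. The mean of 239 ± 65.0 CPM (SD, n = 4) was at least 8363-fold above ESCs by library totals, and by TMM factors at least 6011-fold, or 2091-fold by totals with 3 counts in each ESC library. A noncoding RNA, *1600012P17Rik*, shares 310 exon bases with *Pappa2* on its strand and was counted as a gene of its own, with 0 counts in each ESC library and 8380, 3861, 4327 and 2529 counts in the NPC libraries, so reads from the shared bases cannot be told apart.

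Of 8 other genes of the pappalysin and insulin-like growth factor pathway, 6 were higher in NPCs, 0 were lower and 2 did not pass (median log2 fold change 6.16 over the list). The growth factor *Igf2* rose by a log2 fold change of 7.70 (SE 0.38, adjusted p = 1.1e-05), to 3910 ± 1669 CPM (SD, n = 4). *Igfbp5*, the binding protein best known as a substrate of pappalysin-2, rose by 8.58 (SE 0.42, adjusted p = 1.1e-05). *Igf1* rose by 9.39, the related protease gene *Pappa* by 6.82, the binding protein gene *Igfbp4* by 5.22 and the stanniocalcin gene *Stc1*, whose product inhibits pappalysins, by 5.50. *Igfbp3*, another substrate, had means of 22.3 ± 12.3 CPM (ESC) and 28.3 ± 2.42 CPM (NPC) (log2 fold change -0.12, adjusted p = 0.80), and *Stc2* had a log2 fold change of 0.26 (adjusted p = 0.59), all from edgeR's quasi-likelihood test.

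*Pcdh12* encodes protocadherin 12, an adhesion molecule made by glycogen trophoblast cells and also by endothelial cells. It lies on chromosome 18 (GRCm39, 38400142 to 38417455, minus strand). Its 4 ESC libraries held 1 count in all, in J/B replicate 2. In NPCs it had 5495 counts (178 CPM, 174 to 183) and 2484 counts (93.5 CPM, 89.8 to 97.2) in B/J and 2715 counts (83.0 CPM, 79.9 to 86.2) and 1695 counts (66.2 CPM, 63.0 to 69.4) in J/B. Every B/J library was above every J/B library, with B/J replicate 1 far above the rest. The mean was 105 ± 50.0 CPM (SD, n = 4), and the NPC/ESC ratio of pooled counts was 11190 by library totals (95% counting interval 2009 to 442200), and by TMM factors 8046 (1444 to 317800). The interval is wide because it rests on that 1 ESC count.

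Since *Pcdh12* is also an endothelial gene, 10 other endothelial markers were read beside it, of which 4 were higher in NPCs, 3 were lower and 3 did not pass (median log2 fold change 0.56). *Cdh5*, the endothelial cadherin, went from 0.140 ± 0.0959 CPM to 473 ± 284 CPM, and the receptor gene *Kdr* rose by 4.09. The adhesion molecule gene *Pecam1* fell by 2.35 (SE 0.34, adjusted p = 0.00056), from 51.1 ± 24.6 CPM to 15.68 ± 8.997 CPM, and *Robo4* fell by 4.59. Over all 10 the summed level was 52.3 to 194 CPM in ESC libraries and 304 to 986 CPM in NPC libraries, and no marker was at 0 in an NPC library. *Cdh5* alone made up 253.5 to 880 CPM of the NPC sums, and the other 9 summed to 43.2 to 106 CPM in NPC libraries and 52.2 to 194 CPM in ESC libraries. The part of endothelial RNA in the *Pcdh12* level was not tested. Of 9 blood markers, 2 passed the filter on low counts, both through the NPC libraries: the embryonic globin genes *Hbb-y* with 13, 13, 4 and 0 counts and *Hba-x* with 17, 12, 9 and 1 counts, against 0 in each ESC library. The summed level of the 9 was at most 1.09 CPM in an NPC library, and the adult haemoglobin genes *Hba-a1*, *Hba-a2*, *Hbb-bt* and *Hbb-bs* had 0 counts in all 8 libraries. Among 10 other nonclustered protocadherins, 9 were higher in NPCs and 1 did not pass, with *Pcdh9* (log2 fold change 5.65) and *Pcdh18* (5.33) the largest. Of the 9, *Pcdh9*, *Pcdh11x* and *Pcdh20* passed the filter only through their NPC counts, which fixed their direction.

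*Plac1* encodes a placenta-specific membrane-associated protein with a zona pellucida-like domain and is needed for normal placental growth. It lies on the X chromosome (GRCm39, chrX:52158870-52328988, minus strand). The ESC libraries had 2 and 2 counts in B/J, 3 and 3 counts in J/B, at most 0.133 CPM. In NPCs it had 4318 counts (140 CPM, 136 to 144) and 1395 counts (52.5 CPM, 49.8 to 55.3) in B/J and 2177 counts (66.6 CPM, 63.8 to 69.4) and 816 counts (31.9 CPM, 29.7 to 34.1) in J/B. Replicate 2 of B/J fell between the J/B libraries, so the crosses overlapped. The mean was 72.8 ± 47.1 CPM (SD, n = 4), and the NPC/ESC ratio was 787 by library totals (428 to 1641), and by TMM factors 565 (307 to 1180).

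*Syna* and *Synb* encode syncytin-A and syncytin-B, envelope proteins of captured retroviruses that fuse trophoblast cells into the first and the deeper layer of the syncytiotrophoblast respectively. *Syna* lies on chromosome 5 (GRCm39, chr5:134587000-134589025, minus strand) as 1 exon, of which 1986 of 2026 bases lie opposite a noncoding gene that is not a row of the count table. It had 3 and 2 counts in B/J ESCs and 6 and 3 in J/B ESCs. In NPCs it had 710 counts (23.0 CPM, 21.4 to 24.8) and 286 counts (10.8 CPM, 9.55 to 12.1) in B/J and 239 counts (7.31 CPM, 6.41 to 8.30) and 166 counts (6.48 CPM, 5.53 to 7.54) in J/B. The crosses did not overlap, and the J/B libraries lay within 1.13-fold of each other. The mean was 11.9 ± 7.66 CPM (SD, n = 4), with an NPC/ESC ratio of 90.4 by library totals (53.7 to 166), and by TMM factors 65.0 (38.6 to 119).

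*Synb*, on chromosome 14 (GRCm39, chr14:69526793-69531748, minus strand), was close to the limit of detection everywhere. It had 0 counts in each ESC library and 1, 0, 0 and 4 counts in the NPC libraries, a pooled level of 0.0432 CPM (0.0140 to 0.101) from 5 counts. The coding sequences of the 2 syncytins were 73.0% identical and 0 of 1927 windows of 100 bases from *Syna* occurred in *Synb*.

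Of 15 other syncytiotrophoblast genes, 9 were higher in NPCs, 3 were lower and 3 did not pass, and the median log2 fold change was 0.88. *Gcm1*, the transcription factor of the *Synb* layer, had a fitted log2 fold change of 3.77 but a level of only 3.09 ± 1.64 CPM (SD, n = 4) in NPCs. The transcription factor genes *Pparg* (9.44), *Dlx3* (6.94) and *Cebpa* (2.46), the gap junction gene *Gjb2* (8.65), the receptor genes *Fgfr2* (3.73) and *Met* (1.74), the lactate transporter gene *Slc16a3* (0.71) and the glucose transporter gene *Slc2a1* (0.88) also rose. The transferrin receptor gene *Tfrc* (-1.52), *Tfeb* (-1.19) and *Ly6e* (-0.87), whose product is the receptor of syncytin-A, fell. *Slc16a1* (-0.13), *Ovol2* (0.23) and *Epha4* (-0.47) did not pass. *Slc16a1* is a transporter of the *Syna* layer and *Slc16a3* one of the *Synb* layer, and many genes of this list are also used by other tissues. On library totals *Ly6e* (-0.39, adjusted p = 0.073, edgeR's quasi-likelihood test) no longer passed, while *Tfrc* and *Tfeb* did.

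*Rhox9* encodes a homeodomain protein of the X-linked reproductive homeobox cluster, made in placenta and in germ cells. It lies at chrX:36987972-36990647 (GRCm39, minus strand). Of the 8 genes it was the best detected in ESCs, with 60 and 62 counts in B/J (2.14 and 2.26 CPM) and 24 and 210 counts in J/B (1.07 and 7.92 CPM). The J/B ESC libraries thus differed 7.44-fold from each other. In NPCs it had 7311 counts (237 CPM, 232 to 243) and 2806 counts (106 CPM, 102 to 110) in B/J and 2636 counts (80.6 CPM, 77.6 to 83.7) and 1484 counts (57.9 CPM, 55.0 to 60.9) in J/B. The lowest NPC library was above the highest ESC library, and the crosses did not overlap in NPCs. The mean went from 3.35 ± 3.10 CPM to 120 ± 80.4 CPM (SD, n = 4 each), an NPC/ESC ratio of 36.1 by library totals (32.5 to 40.3), and by TMM factors 26.0 (23.4 to 28.9). The fitted log2 fold change was 4.65, rising to 5.67 if ESC J/B replicate 2 was left out and falling to 4.28 if NPC B/J replicate 1 was.

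The count table held 31 other *Rhox* genes, of which 4 passed the filter on low counts. *Rhox6*, the nearest relative with a coding sequence 90.6% identical to that of *Rhox9*, rose by 4.17 (SE 0.61, adjusted p = 0.00058), from 5.08 ± 6.13 CPM to 121 ± 90.0 CPM. Of 785 windows of 100 bases from the *Rhox9* transcript, 62 (7.90%) also occur in *Rhox6*. Reads that lie wholly within them have no base that tells the genes apart. The filter on mapping quality may have removed such reads from both genes. *Rhox12* had 0 counts in each ESC library and 556, 143, 104 and 43 counts in the NPC libraries, through which alone it passed the filter. *Rhox5* had a log2 fold change of 0.17 (adjusted p = 0.63) and *Rhox1* one of -2.24 (adjusted p = 0.056), both from edgeR's quasi-likelihood test. Of 8 germ line markers, which mark the other place where *Rhox9* is made, 0 were higher in NPCs, 7 were lower (*Dppa3*, -5.78; *Sohlh2*, -3.95) and *Mael* did not pass. Their summed level was 57.4 to 116 CPM in ESC libraries and 6.17 to 19.6 CPM in NPC libraries.

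**Figure D1:**
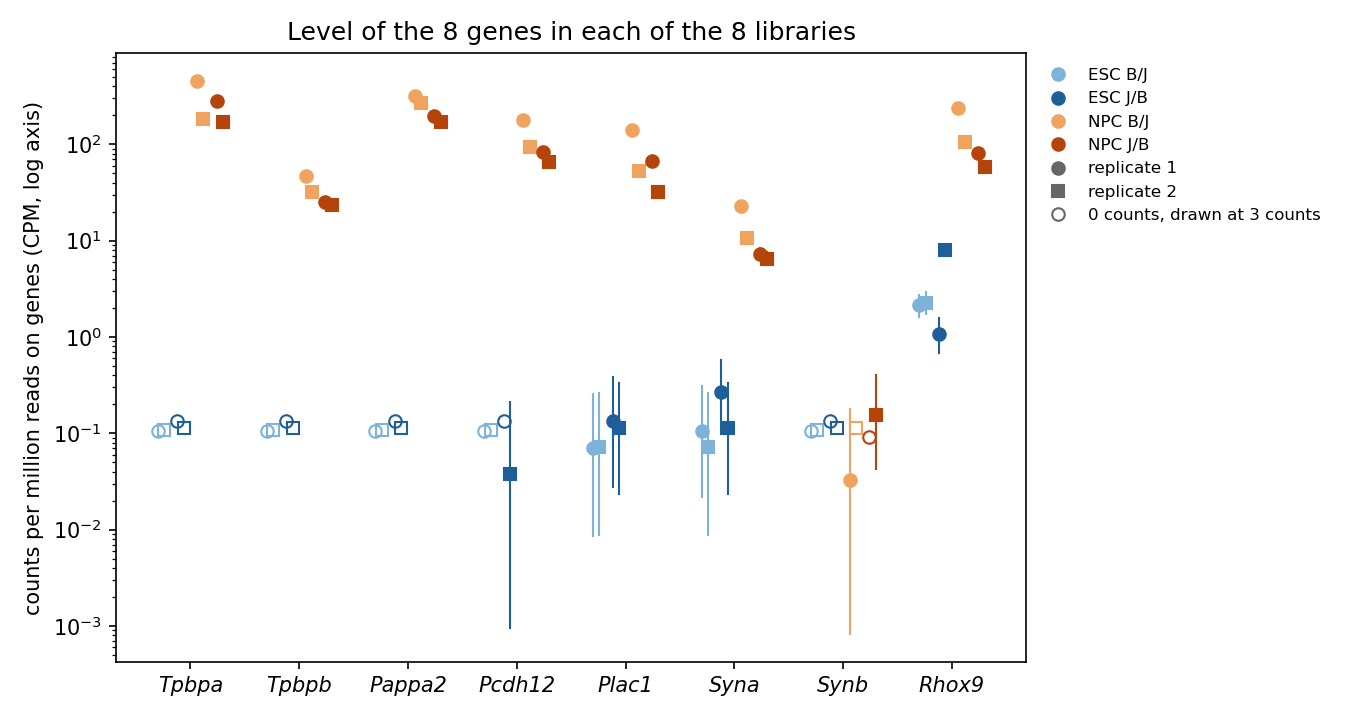
Level of each of the 8 genes in each of the 8 libraries, in CPM on a log axis, with 95% exact Poisson intervals as lines and libraries with 0 counts drawn as open points at 3 counts. For every gene but *Synb* the NPC libraries lie above all ESC libraries, and NPC B/J replicate 1 is the highest.

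In 7 of the 7 tested genes every NPC library was above every ESC library, which also held for 46.7% of all genes tested. This count is fixed by how the genes were chosen and nothing is read from it.

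Levels can be compared between genes only per length, and CPM were therefore divided by the kilobases of all annotated exons of each gene. On this scale *Tpbpa* was the highest of the 8 in NPCs, at 127 ± 60.3 CPM per kb (SD, n = 4), with 0.743% of 23697 genes higher. It was followed by *Rhox9* at 48.3 ± 32.3, *Plac1* at 42.8 ± 27.7, *Tpbpb* at 25.0 ± 8.43, *Pappa2* at 23.2 ± 6.32 and *Pcdh12* at 17.4 ± 8.26 CPM per kb, then *Syna* at 5.87 ± 3.78 and *Synb* at 0.0116 ± 0.0183. *Pappa2* stood lower in this order than in CPM, as its exons span 10294 bases. *Rhox9* and *Plac1* changed places between NPC libraries, as did *Tpbpb* and *Pappa2*, so on this scale neither pair of neighbours is told apart by its spread. In each of the 4 libraries *Tpbpa* was above *Rhox9*, *Plac1* above *Tpbpb*, *Pappa2* above *Pcdh12* and *Pcdh12* above *Syna*, although the margin of *Plac1* over *Tpbpb* in J/B replicate 2 was small (18.7 against 18.5 CPM per kb). With the length of the canonical transcript in place of all exons, an alternative chosen after seeing the data, *Rhox9* was at 136 CPM per kb beside 168 for *Tpbpa*, and *Tpbpb* at 37.6. On that scale *Rhox9* was above *Tpbpa* in B/J replicate 2 (119 against 114 CPM per kb) and below it in the other NPC libraries. *Rhox9* was then above *Plac1* in each NPC library and *Tpbpb* above *Pappa2* in each, while *Plac1* fell below *Tpbpb* in J/B replicate 2 (25.7 against 27.8 CPM per kb), so the order of these neighbours depends on the length used.

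**Figure D2:**
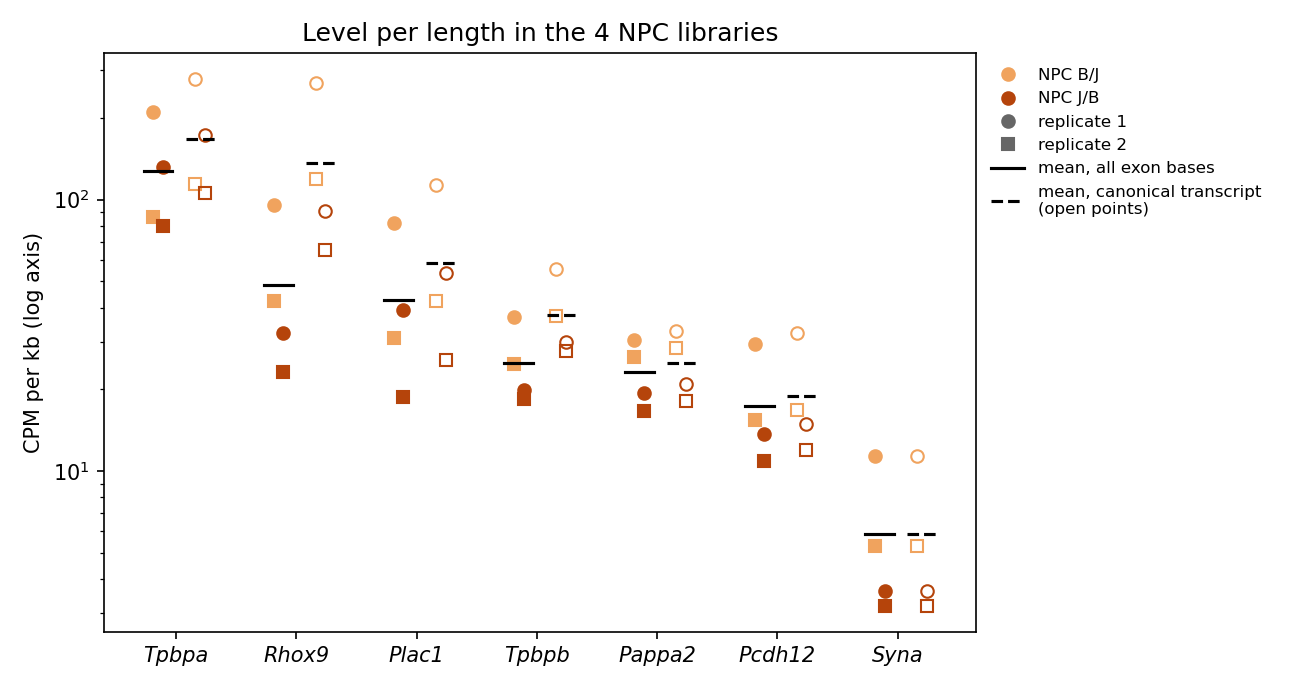
Level per length of the 7 tested genes in the 4 NPC libraries, in CPM per kb on a log axis, with filled points and solid mean lines for all exon bases and open points and dashed mean lines for the canonical transcript. By mean level *Tpbpa* leads and *Rhox9* is next on both scales and *Syna* is the lowest, while in B/J replicate 2 *Rhox9* is above *Tpbpa* on the canonical scale.

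The counts of each were also divided by those of *Tpbpa* in the same NPC library, a ratio that is read across libraries and not between genes. Its intervals cover counting error only, and no test of the spread between cultures was made on it. *Tpbpb* stood at 0.105 (0.0994 to 0.111) and 0.171 (0.159 to 0.184) of *Tpbpa* in B/J and at 0.0901 (0.0838 to 0.0967) and 0.138 (0.127 to 0.151) in J/B. *Pappa2* stood at 0.697 (0.679 to 0.716) and 1.47 (1.41 to 1.52) in B/J and at 0.707 (0.685 to 0.730) and 1.01 (0.965 to 1.05) in J/B. For these genes the libraries numbered 2 had the larger ratios in each cross. *Plac1* had ratios of 0.311 and 0.284 in B/J against 0.237 and 0.186 in J/B, with the larger ratio in the library numbered 1, although the B/J intervals touched (0.301 to 0.322 and 0.268 to 0.302). *Rhox9* had ratios of 0.527 and 0.572 in B/J against 0.286 and 0.339 in J/B, and *Syna* 0.0512 and 0.0583 in B/J against 0.0260 and 0.0379 in J/B. In both of these genes, and in *Plac1*, the crosses did not overlap, J/B being lower relative to *Tpbpa*. The share of all genes that do so on this scale was not counted, and nothing particular to these genes is read from it. *Pcdh12* had ratios of 0.396 and 0.506 in B/J against 0.295 and 0.387 in J/B, where the J/B replicate 2 interval (0.366 to 0.410) overlapped that of B/J replicate 1 (0.384 to 0.409).

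**Figure D3:**
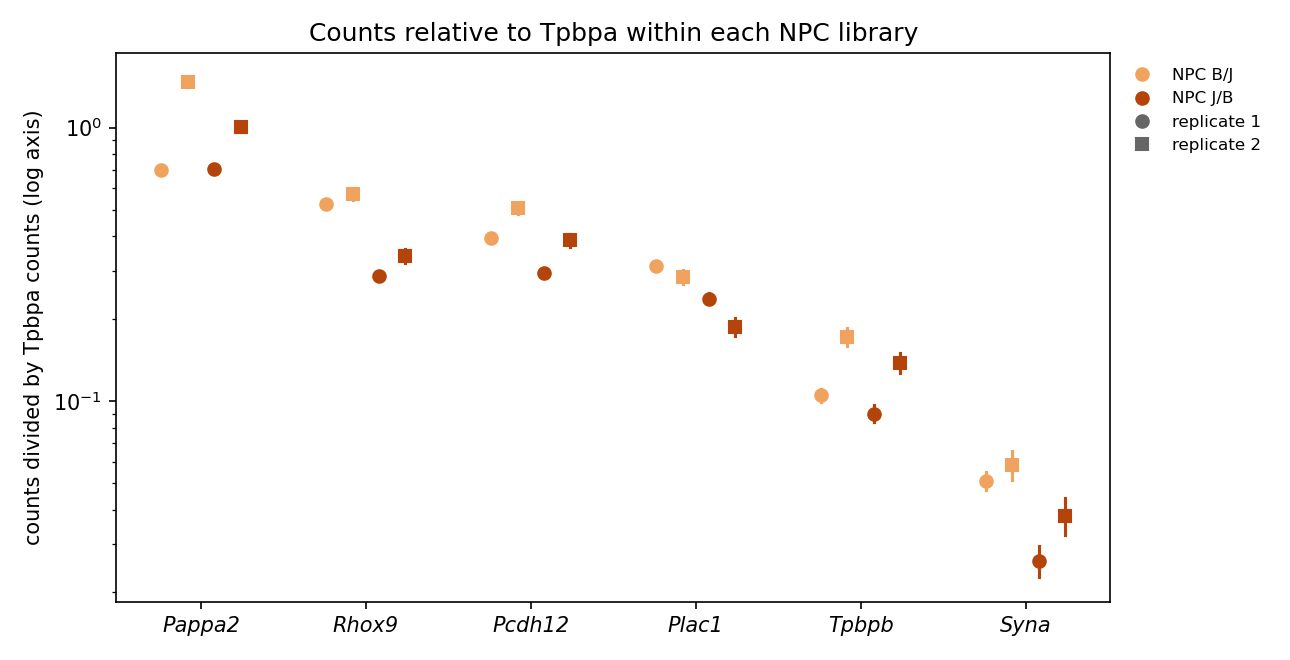
Counts of 6 genes divided by the counts of *Tpbpa* in the same NPC library, on a log axis with 95% counting intervals. Ratios of *Pappa2* range from 0.697 to 1.47, and those of *Rhox9*, *Syna*, *Plac1* and *Pcdh12* are lower in both J/B libraries than in both B/J libraries, with the share of all genes that do so not counted.

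J/B and B/J NPCs were compared next, a contrast that was not used to choose the genes. In CPM, both J/B libraries were below both B/J libraries for 5 of the 7 tested genes, as they were for 18.6% of all genes tested, the exceptions being *Tpbpa* and *Plac1*. By edgeR's quasi-likelihood test 0 of the 7 genes passed an adjusted p of 0.05, as 0.0061% of all genes did (1 gene of 16399), while 3 of the 7 had an unadjusted p below 0.05, as had 1050 of all genes. DESeq2 also called 0 of the 7, and 70 of all genes. All 7 fitted values were below 0, with a median log2 fold change of -0.92 against 0.01 over all genes. The members with the largest fitted differences were *Rhox9* (-1.37, SE 0.71, 95% interval -3.02 to 0.29, adjusted p = 0.77), *Syna* (-1.35, SE 0.52, -2.55 to -0.16, adjusted p = 0.76) and *Plac1* (-1.03, SE 0.50, -2.19 to 0.13, adjusted p = 0.77). *Pcdh12* was at -0.92 (SE 0.37), *Tpbpb* at -0.75 (SE 0.34), *Pappa2* at -0.71 (SE 0.20) and *Tpbpa* at -0.55 (SE 0.48, 95% interval -1.74 to 0.64), with adjusted p from 0.75 to 0.86.

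These values leaned on single libraries. NPC B/J replicate 1 had the highest level of each of the 7 genes and a summed level of the 8 of 1390 CPM, against 749 CPM in B/J replicate 2 and 743 and 529 CPM in J/B. Without it *Tpbpa* turned to 0.25, *Plac1* was at -0.13, *Pcdh12* at -0.37, *Tpbpb* at -0.41, *Pappa2* at -0.59, *Rhox9* at -0.65 and *Syna* at -0.68, each with an adjusted p of 1 (range over all alternatives 0.11 to 1). Without J/B replicate 1 *Plac1* was at -1.70. The same B/J library had the highest summed level of 10 general trophoblast markers, 3583 CPM against 1322 to 1967 CPM, and the lowest of 10 neural precursor markers, 693 CPM against 1417 to 1939 CPM in the other NPC libraries, and the part of either in the difference between crosses was not tested. In each cross, the NPC library numbered 1 was above the one numbered 2 for 7 of the 7 genes, as it was in both crosses for 30.5% of all genes tested. Between libraries of the same number, J/B was below B/J at both numbers for 7 of the 7 genes, *Tpbpa* and *Plac1* included, as it was for 28.7% of all genes tested.

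**Figure D4:**
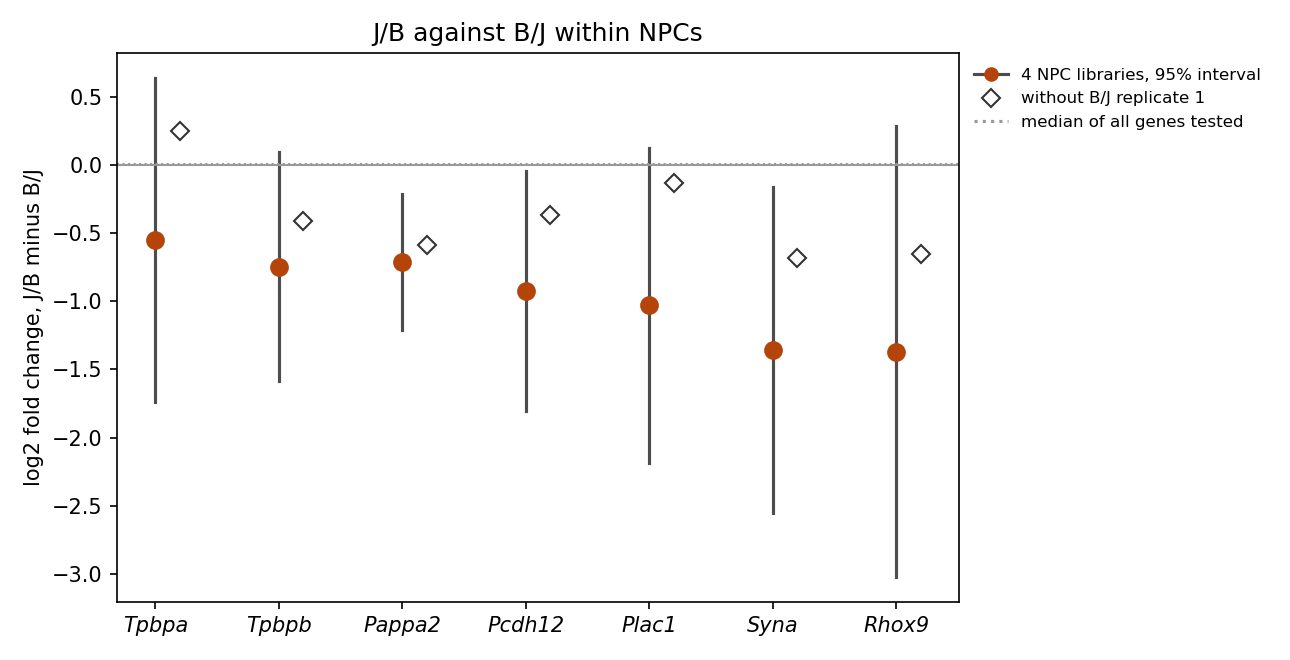
Fitted log2 fold change of J/B against B/J in NPCs for the 7 tested genes, with 95% intervals from edgeR, and the same value without NPC B/J replicate 1 as open diamonds. All 7 values lie below 0 with the 4 libraries, and *Tpbpa* turns to 0.25 without that library.

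In ESCs, edgeR's quasi-likelihood test called 0% of all genes between the crosses (346 had an unadjusted p below 0.05, and DESeq2 called 10). *Tpbpa*, *Tpbpb*, *Pappa2* and *Pcdh12*, with 0 or 1 counts over the ESC libraries, could not be called there at any setting and are left out of this comparison. The genes with counts in both crosses were not called by either tool and had log2 fold changes of 0.98 for *Rhox9* (95% interval -0.83 to 2.78), 0.99 for *Syna* (-0.87 to 2.85) and 0.70 for *Plac1* (-2.20 to 3.59), each with an adjusted p of 1, at depths of 2 to 6 counts a library for *Syna* and *Plac1*. The size of the NPC/ESC ratio differed by cross in these genes as values: *Rhox9* had a ratio of 80.2 (67.1 to 96.7) in B/J and 14.8 (13.0 to 17.0) in J/B, *Syna* one of 193 (82.3 to 595) and 37.8 (19.7 to 83.4), and *Plac1* one of 1381 (539 to 5072) and 420 (193 to 1144), on library totals. The counting intervals of the crosses overlapped for *Syna* and for *Plac1*. The J/B ratio of *Syna* rested on 9 ESC counts, 6 of them in replicate 1, and was not computed without that library. For *Rhox9* this difference rested on ESC J/B replicate 2, without which the J/B ratio was 66.3, and it was 8.92 without ESC J/B replicate 1. Without NPC B/J replicate 1 the B/J ratio of *Rhox9* was 48.0, that of *Syna* 120 and that of *Plac1* 728, and without NPC J/B replicate 1 the J/B ratio of *Plac1* was 260. These ratios within a cross with a library left out were chosen after seeing the data. The interaction of stage and cross called 0% of all genes (573 had an unadjusted p below 0.05, and DESeq2 called 11). It is built in part from the step between ESCs and NPCs by which the genes were chosen and is given as a description for the 3 with counts in ESCs of both crosses. It stood at -2.34 for *Rhox9* (SE 1.05), at -2.34 for *Syna* (SE 0.96) and at -1.73 for *Plac1* (SE 1.36).

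Other markers of the same placental compartments, none of them among the 8 genes, were read from lists. Of 10 other spongiotrophoblast and glycogen cell genes, 8 were higher in NPCs, 1 was lower and 1 did not pass, with a median log2 fold change of 3.17. *Flt1*, a receptor gene whose soluble product is made by spongiotrophoblast, rose by 7.01 (SE 0.53), *Plac8* by 6.92, the retinaldehyde dehydrogenase gene *Aldh1a3* by 6.88 and the kinase gene *Nrk*, a placental regulator, by 5.52 to 534 ± 310 CPM (SD, n = 4). *Cited1* (3.64), the transcription factor gene *Ascl2* (2.71), *Cited2* (2.24) and the connexin gene *Gjb5* (0.82) rose too, with adjusted p at most 0.035 by edgeR's quasi-likelihood test. *Phlda2*, an imprinted gene that limits spongiotrophoblast growth, fell by 0.83 after TMM scaling (adjusted p = 0.024), but did not pass on library totals (-0.37, adjusted p = 0.26). ESC libraries held 25.29 ± 9.379 CPM of *Phlda2* and NPC libraries 22.47 ± 16.23 CPM (SD, n = 4), so the stages overlapped, with NPC B/J replicate 1 (44.8 CPM) above every ESC library. Of 10 general trophoblast genes 8 were higher, 0 lower and 2 did not pass, with a median of 4.39, led by the keratin gene *Krt7* (9.49) and the transcription factor gene *Gata3* (5.69). Lists of other cell types moved the same way in this contrast. Of 10 fibroblast markers 9 were higher and 1 did not pass (median 6.66), with a summed level of 6.83 to 63.45 CPM in ESC libraries and 949 to 2330 CPM in NPC libraries. Of 8 tested primitive endoderm markers 7 were higher and 1 lower (median 2.48), and of 8 neuron markers 7 were higher and 1 lower (median 3.035). Between the crosses in NPCs, 0 genes of any list were called by edgeR, with medians of -1.28 for the spongiotrophoblast list, -0.72 for the syncytiotrophoblast list and -1.15 for the general trophoblast list against 1.04 for the neural precursor list. Medians below 0 were not particular to trophoblast lists, being -1.19 for the pluripotency list and -0.80 for the endothelial list as well.

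**Figure D5:**
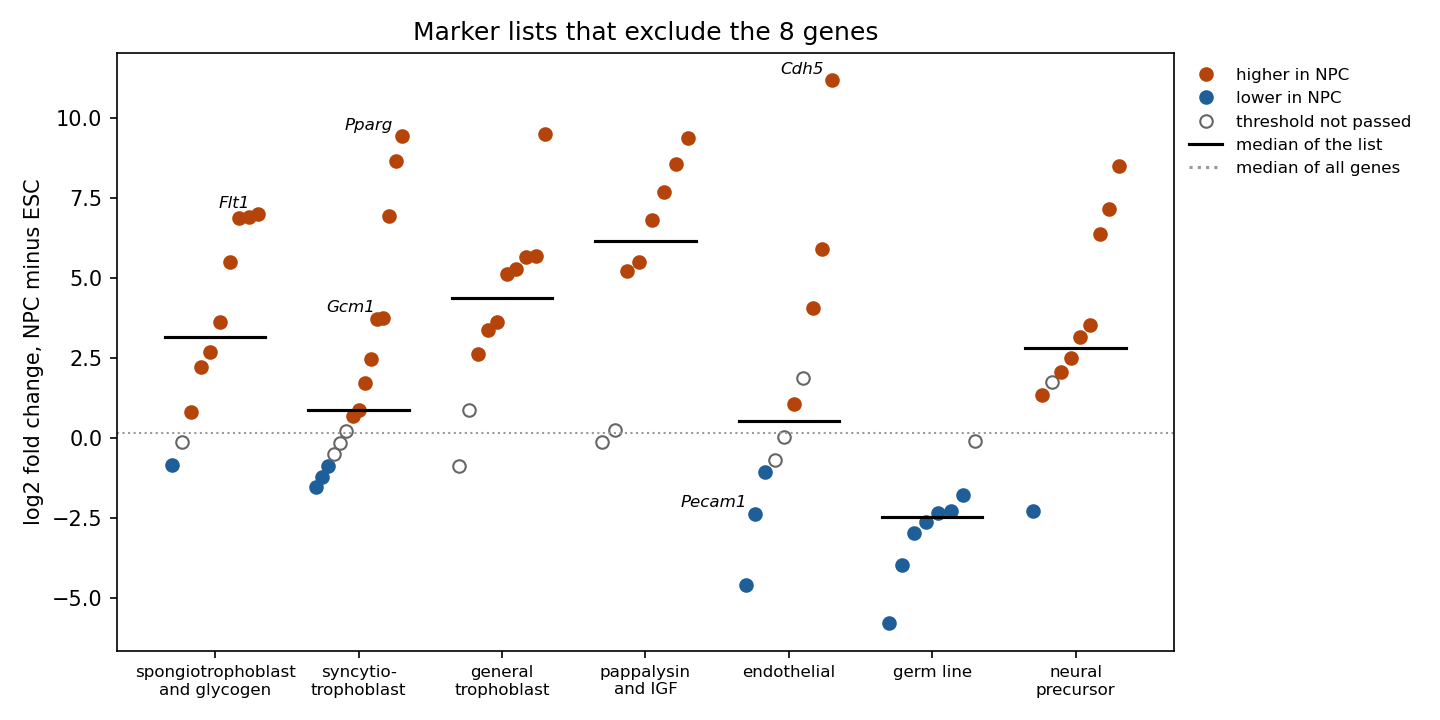
Fitted log2 fold change of NPCs against ESCs for genes of 7 marker lists, 1 point a gene, filled where edgeR's adjusted p is below 0.05, with the median of each list as a bar and that of all genes as a dotted line. Placental lists lie mostly above the dotted line at 0.17, endothelial genes fall on both sides, and germ line genes lie below it.

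Outside the lists, the genes whose profile over the 8 libraries was most like that of a member were found by the root mean square difference of centred log2(TMM CPM + 0.5), where smaller is more alike. For *Tpbpa* these were *Serpinb9e* (0.19), *Tnfrsf9* (0.23) and the prolactin family gene *Prl2a1* (0.24), and for *Pappa2* they were *Serpinb9e* (0.28), *Tpbpa* itself (0.32) and the placental cathepsin gene *Ctsj* (0.32). *Plac1* was most like *Serpinb9f* (0.21), *Serpinb9c* (0.21) and *Cd82* (0.22). *Pcdh12* was most like *Sbsn* (0.15), *Serpinb6b* (0.18) and the keratin gene *Krt7* (0.19). *Tpbpb* was most like *Entpd1* (0.11), *Fam78b* (0.13) and *Gab2* (0.15), with *Tpbpa* at 1.52. *Syna* was most like *Aldh3b2* (0.15), the placental growth factor gene *Pgf* (0.17) and *Gm3629* (0.19), and *Rhox9* was most like *Chdh* (0.34), *Rhox6* (0.35) and the imprinted gene *Cdkn1c* (0.42). These likenesses rest on 8 libraries and on the step between ESCs and NPCs, which was used to choose the members, and for genes at 0 in ESCs they follow the level in NPCs.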

How the data were processed

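PolyA RNA was sequenced as read pairs after TruSeq Stranded mRNA or NEBNext Ultra II mRNA preparation on a HiSeq4000 or NovaSeq6000, with no statement of the kit and instrument used for each library. The authors aligned reads with TopHat2 to mm39 with JF1 variant positions masked, filtered for proper pairs and mapping quality (20 or more), and deposited raw counts per gene, summed over alleles. HTSeq stands in the submitters' processing notes, without a version or strand setting, so without that setting reads of a gene and its antisense partner cannot be told apart. The 5 closing entries (no feature, 5.76 to 10.9% of each library; ambiguous, at most 0.554%) were left out.

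Counts were fitted in R 4.3.3 with edgeR 4.0.16 (TMM, filterByExpr with a minimum count of 10, robust quasi-likelihood, 4 groups as means), and p-values were adjusted over all 16399 genes tested by the Benjamini-Hochberg method at a threshold of 0.05. Normalized CPM used library totals unless TMM is named. Alternatives were RLE factors, library totals, no filter, a mean of at least 1 CPM, a replicate block, DESeq2 1.42.0 and each library left out, where a lone library took its spread from the other groups. Added after seeing the data were the canonical transcript length and a block for replicate number within ESCs and within NPCs. The fits were tested on simulated data. Gene positions and lengths came from GENCODE vM39. The genes and all lists were chosen with earlier results of these data known. Named from a list were the 2 largest called rises and the 2 largest called falls with a mean of at least 1 CPM, every gene of the spongiotrophoblast, syncytiotrophoblast, *Ctla2* and insulin-like growth factor lists, the tested *Rhox* genes, and the 3 most similar profiles of each member. The values of 1 gene of the spongiotrophoblast list are not reported here. Other genes named were picked after their values were seen. The sequence upstream of *Pcdh12*, *Synb* and *Rhox9* is not used here, and neither are allelic counts.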

Additional observations from a re-analysis of the deposited data

How the results depend on the processing

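For J/B against B/J in NPCs, 0 of the 7 tested genes were called under each of the 15 alternatives, and the same count in ESCs and for the interaction says nothing of stability, as 4 of the 7 had 0 or 1 counts over the ESC libraries and could not be called. Fitted values between the crosses in NPCs kept their sign except for *Tpbpa*, which ranged from -1.08 without NPC B/J replicate 2 to 0.25 without NPC B/J replicate 1. The calls over all genes moved more. In the NPC contrast edgeR called 1 gene, but 0 on library totals, 5 without the filter, 0 with a replicate block, 4 with a replicate block within each stage, 70 by DESeq2 and 0 to 1 with each library left out. For ESCs the 0 calls became 2 without the filter and 10 by DESeq2, and for the interaction 11 by DESeq2. Genes called lower in NPCs numbered 3422 on library totals against 5233, and 2 against 4 in the spongiotrophoblast and syncytiotrophoblast lists. Over all lists, genes called between the crosses in NPCs went from 0 to 1 without the filter, 1 with the block within each stage and 7 by DESeq2. The median NPC against ESC change of the 7 genes, which is that of *Tpbpb* with 0 counts in ESCs and so no measured size, was 11.65 by DESeq2 instead of 12.54. The cause of these shifts was not tested. Libraries with the same number deviated together between the crosses within a stage (correlation over 16399 genes 0.61 in ESCs and 0.51 in NPCs) but hardly across stages (0.05 to 0.09), and no label says what a number shares, so the numbers were not taken to pair the samples. With the block within each stage, adjusted p of the 7 genes between the crosses in NPCs ran from 0.11 to 0.28. Depth limits the ESC values of *Plac1*, *Syna* and *Pcdh12* and all values of *Synb*, and 2 libraries a group limit every comparison of crosses.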
